A study of Mus musculus with 2 samples.

Results

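The cells described here are hypothalamic microglia that carried messenger RNA of Lpl, Spp1 or Cst7, genes that most microglia of a young brain hardly express. They were selected on measured values. A cell was taken when it held at least 500 unique molecular identifiers (UMIs, one per captured RNA molecule), at least 300 genes and at most 10% mitochondrially encoded UMIs, and when its UMIs of Lpl, Spp1, Cst7, Itgax, Clec7a and Gpnmb summed to 3 or more. Clec7a was not analysed here, so the sum ran over 5 genes. Of 20222 cells that passed the quality limits, 236 were selected. They were 91 of 9860 cells (0.923%, 95% exact binomial interval 0.744 to 1.13) in the plasma-negative library and 145 of 10362 cells (1.40%, 1.18 to 1.64) in the plasma-positive library.

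Both libraries came from pooled young wild-type mice, taken 20 hours after an injection of plasma protein tagged with a dye. Hypothalamic microglia were sorted by fluorescence into a plasma-positive fraction, which held the dye, and a plasma-negative fraction, which lacked it. Each fraction was loaded as 1 library of the Chromium 3′ kit. With 1 library per group there is no replicate check on any difference between the groups, and cells of 1 library are not replicates, so no test is given. Intervals cover counting error only.

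Microglia are the resident macrophages of the brain. In demyelination, ageing and amyloid disease some of them lower the genes of the surveying state, such as P2ry12 and Tmem119, and raise a programme for lipid uptake and lysosomal digestion known as the disease-associated state. Lpl, Spp1, Cst7, Itgax, Clec7a and Gpnmb are among its best known genes, and similar microglia occur in the developing white matter. Lpl encodes lipoprotein lipase, which splits triglycerides of lipoproteins. Spp1 encodes osteopontin, a secreted ligand of integrins and CD44. Cst7 encodes cystatin F, an inhibitor of lysosomal cysteine proteases, Itgax the integrin CD11c, and Gpnmb a transmembrane glycoprotein of lysosomes.

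The promoters of 4 of these genes are shown because the genes decide which cells are described. Each run covers 250 bases before to 50 bases after a RefSeq transcript start on build GRCm38.p6, 5′ to 3′ on the gene's strand, and the tables used here hold none for Lpl. Capitals mark matches, on either strand, to the AP-1 motif TGANTCA, the antioxidant response motif TGACNNNGC, the E-box CACGTG and the PU.1 motif GAGGAA. The windows are chr5:104434861-104435160 (Spp1, the first of 2 starts), chr2:150570165-150570464 (Cst7), chr7:128129300-128129599 (Itgax) and chr6:49036268-49036567 (Gpnmb), all on the plus strand.
Spp1: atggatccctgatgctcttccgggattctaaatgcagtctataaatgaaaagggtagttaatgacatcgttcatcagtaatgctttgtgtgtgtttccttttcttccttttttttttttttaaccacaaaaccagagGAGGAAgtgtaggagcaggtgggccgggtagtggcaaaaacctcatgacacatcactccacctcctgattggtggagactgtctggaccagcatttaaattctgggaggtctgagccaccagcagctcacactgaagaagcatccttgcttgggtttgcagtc
Cst7: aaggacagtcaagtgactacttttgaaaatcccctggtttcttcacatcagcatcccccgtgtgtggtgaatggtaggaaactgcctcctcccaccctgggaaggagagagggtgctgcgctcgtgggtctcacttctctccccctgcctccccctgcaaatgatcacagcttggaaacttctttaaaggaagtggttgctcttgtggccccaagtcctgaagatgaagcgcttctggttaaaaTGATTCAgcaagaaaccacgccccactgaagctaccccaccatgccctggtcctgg
Itgax: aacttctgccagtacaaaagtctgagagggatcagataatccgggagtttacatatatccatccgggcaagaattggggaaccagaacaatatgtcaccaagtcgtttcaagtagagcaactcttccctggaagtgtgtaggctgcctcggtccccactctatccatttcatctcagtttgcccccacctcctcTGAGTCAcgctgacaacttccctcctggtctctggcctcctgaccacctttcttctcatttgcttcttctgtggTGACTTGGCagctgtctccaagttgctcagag
Gpnmb: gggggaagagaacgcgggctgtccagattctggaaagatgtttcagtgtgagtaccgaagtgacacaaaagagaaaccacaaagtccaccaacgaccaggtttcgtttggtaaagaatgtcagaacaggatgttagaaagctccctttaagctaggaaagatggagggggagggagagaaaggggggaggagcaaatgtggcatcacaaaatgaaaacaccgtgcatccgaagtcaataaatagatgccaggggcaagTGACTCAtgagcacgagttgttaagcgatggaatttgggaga

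The AP-1 motif occurred in the windows of Cst7, Itgax and Gpnmb, starting 6 bases before, 56 bases before and at base 9 of the transcript. Among all 32851 windows of this length 7.81% held it. The PU.1 motif occurred in the Spp1 window and in 28.3% of all windows. A match describes letters and is not evidence that a factor binds there.

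Lpl decided most of the choice. In the plasma-negative library the 91 selected cells held 496 UMIs of Lpl in 79 cells, 57 of Cst7 in 23 cells, 16 of Spp1 in 5 cells, 11 of Itgax in 8 cells and 2 of Gpnmb in 1 cell. In the plasma-positive library the 145 selected cells held 580 UMIs of Lpl in 128 cells, 137 of Cst7 in 45 cells, 85 of Spp1 in 26 cells, 60 of Itgax in 37 cells and 1 of Gpnmb. Lpl was the leading gene in 74 plasma-negative and 108 plasma-positive cells, Cst7 in 11 and 16, Spp1 in 3 and 11, and Itgax in 2 and 5, with 1 and 5 ties. Only 1 plasma-negative and 2 plasma-positive cells were selected on Itgax alone, so the name of the group fits nearly all of its cells. On GRCm38, with GENCODE M21 as annotation, Lpl lies at chr8:68880491-68907448, Spp1 at chr5:104435118-104441050, Cst7 at chr2:150570415-150578944, Itgax at chr7:128129547-128150657 and Gpnmb at chr6:49036546-49070929, all protein-coding and on the plus strand.

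The 5 genes seldom met in 1 cell of the plasma-negative library. There 69 of 91 selected cells held 1 of the genes, 19 held 2 and 3 held 3. Of the 145 plasma-positive cells 77 held 1, 46 held 2, 20 held 3 and 2 held 4. Lpl and Cst7 were found together in 13 plasma-negative and 32 plasma-positive cells, and Lpl and Spp1 in 2 and 17. Deeper cells show more genes, and the selected cells of the plasma-positive library were the deeper ones (median 5423 UMIs against 4405). Levels in CPM (counts scaled to an equal total of UMIs) also differed between the selected cells of the libraries. Spp1 was at 31.5 CPM in the plasma-negative and 90.2 in the plasma-positive ones, Itgax at 21.7 and 63.7, and Cst7 at 112 and 145. Lpl, at 977 and 615, and Gpnmb, at 3.94 and 1.06, went the other way. What depth contributes to the counts of cells with more than 1 gene was not tested.

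Selection was a threshold on a falling tail, not a gap between kinds of cell. Exactly 3 UMIs were found in 50 of the plasma-negative and 73 of the plasma-positive selected cells. Just outside the threshold, 110 and 175 cells held exactly 2. At the far end 9 plasma-negative and 16 plasma-positive cells held 10 or more, up to 81 UMIs in 1 plasma-negative cell, all from Lpl, and 44 in 1 plasma-positive cell.

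**Figure D1:**
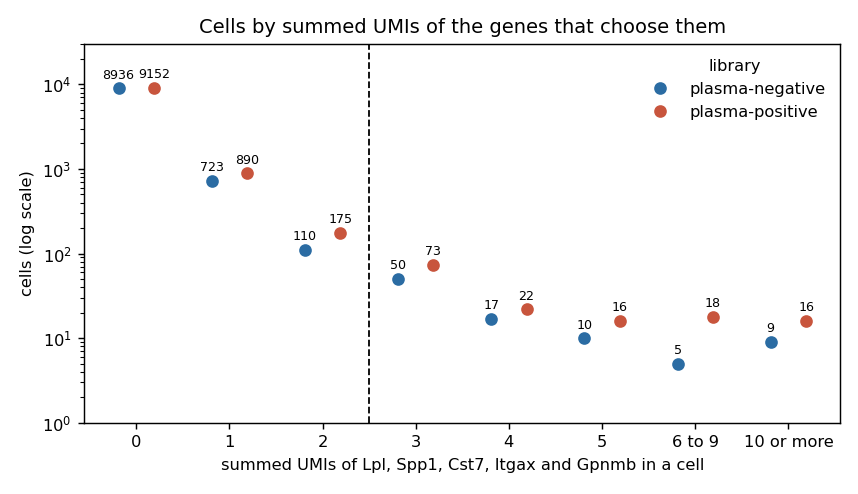
Number of cells (log scale) at each sum of UMIs of the 5 genes, for the plasma-negative and the plasma-positive library. The dashed line marks the threshold: 110 and 175 cells lie just below it at 2 UMIs, and 50 and 73 cells just above it at 3.

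The share of selected cells was higher in deeper cells. In 5 classes of depth the share of selected cells climbed from 0.305% to 2.82% in the plasma-negative and from 0.229% to 3.55% in the plasma-positive library. When each cell with at least 2000 UMIs was thinned to 2000, 3 UMIs of the genes were reached by 0.376% of the plasma-negative cells (31 of 8249, 0.255 to 0.533) and by 0.373% of the plasma-positive ones (34 of 9109, 0.259 to 0.521). Thinned to 1000 UMIs, 0.199% (0.118 to 0.314) and 0.154% (0.0861 to 0.253) did. In thinned cells the shares of the libraries thus lay inside each other's counting intervals. Without thinning, the class of cells above 4857.8 UMIs, which has no upper limit, had 2.82% (2.03 to 3.81) against 3.55% (2.87 to 4.34). The class below it had 0.911% (0.521 to 1.47) against 1.22% (0.813 to 1.76), and in the 3 lowest classes the plasma-negative share was the higher one.

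The selected cells were microglia by their markers. Of 11 microglial markers the median selected cell held 11, and at least 4 were found in 91 of the 91 plasma-negative cells and in 144 of the 145 others. At least 4 markers of any other type on the lists examined were found in 1 cell, a plasma-negative cell with 4 of 12 oligodendrocyte markers. Monocyte markers summed to 6.2 CPM (counts scaled to a total of 1000000 UMIs) in the selected and 10.3 in the matched plasma-negative cells, and to 17.9 and 16.2 in the plasma-positive ones, with Ly6c2, Chil3 and Ear2 at 0. Border-associated macrophage markers summed to 53.7 against 28.9 CPM and 52.6 against 39.7, with Cd163, Lyve1 and F13a1 at 0 in selected and matched cells. Of that list Dab2 was at 33.1 against 7.22 CPM and 20.1 against 17.3, and Ms4a7 at 4.13 and 10.1 against no UMI. Their part in the results was not tested. Dendritic cell markers summed to 59.9 against 88.8 and 83.9 against 96.2 CPM, and the 7 adipocyte markers, listed because fat cells make lipoprotein lipase, were at 0 throughout.

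To describe the rest of the transcriptome, each selected cell was set beside 2 cells of its library with 0 UMIs of the 5 genes and a depth within 5%, called matched cells here. For 90 plasma-negative and 142 plasma-positive selected cells such partners existed, 180 and 284 in all. Their median depths were 4397.5 and 4397 UMIs in the plasma-negative and 5397 and 5396.5 in the plasma-positive library. At that equal depth the selected cells held fewer genes, with medians of 1953.5 against 2033 and of 2156 against 2310.5. The median mitochondrial share of these selected and matched cells was 1.13% against 1.09% in the plasma-negative and 1.74% against 1.25% in the plasma-positive library. Levels are CPM of all UMIs except those of the 5 genes.

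Of 3524 genes at 50 CPM or more in both libraries, 241 (6.84%) were at least 1.5-fold higher in selected than in matched plasma-negative cells and 252 (7.15%) at least 1.5-fold lower. Among plasma-positive cells 171 (4.85%) were higher and 417 (11.8%) lower. In both libraries 91 genes (2.58%) were higher and 89 (2.53%) lower. At least 2-fold, 32 genes (0.908%) were higher and 5 (0.142%) lower in both. The median log2 ratio over the 3524 genes was -0.03 in the plasma-negative and -0.14 in the plasma-positive library, so the plasma-positive ratios are shifted downward by that much. Scaled to that median, 140 genes were higher and 44 lower in both libraries.

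Galectin-3 and inflammatory chemokines were among the named genes with the largest ratios. Lgals3 encodes galectin-3, a lectin that gathers on damaged lysosomes. It gave 102 UMIs in 19 of 90 selected plasma-negative cells and 0 in 180 matched cells, at least 68.1-fold higher with the matched pool set at 3 counts. Of the 102 UMIs 38 lay in 1 cell, and without that cell the log2 bound was 5.42. In the plasma-positive library Lgals3 was at 115 CPM in selected and 3.36 in matched cells (log2 5.10, 3.93 to 6.58). There 14 of 103 UMIs lay in 1 cell, and without it the log2 ratio was 4.89. Ccl3 and Ccl4 encode chemokines that attract leukocytes. Ccl3 was at 298 against 14.4 CPM (log2 4.36, 3.57 to 5.27) in the plasma-negative and 334 against 17.3 (4.27, 3.73 to 4.85) in the plasma-positive library. Ccl4 was at 221 against 7.22 CPM (4.94, 3.84 to 6.28) and 753 against 41.4 (4.18, 3.84 to 4.55).

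These chemokines came from few cells. Selected cells with any Ccl3 numbered 21 of 90 in the plasma-negative library and 35 of 142 in the other. Of its UMIs 41 of 144 plasma-negative and 63 of 299 plasma-positive ones lay in 1 cell each. Without these cells the Ccl3 log2 ratios were 3.88 and 3.93. For Ccl4, 257 of 673 plasma-positive UMIs lay in 1 cell, and without that cell the log2 ratio was 3.49. At least 3 UMIs of Ccl3 and Ccl4 together were held by 13.2% of selected cells (7.0 to 21.9) against 0.556% of matched cells in the plasma-negative library, and by 15.2% (9.76 to 22.1) against 0.704% in the plasma-positive one. Mmp12, a macrophage elastase, rested on single cells: 16 of 25 plasma-negative and 55 of 62 plasma-positive UMIs came from 1 cell each, and 4 and 3 selected cells held any.

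Capg and Cstb were found in more of the selected cells. Capg, which caps actin filaments, was at 118 against 22.7 CPM (log2 2.37, 1.64 to 3.16) and 133 against 28.0 (2.25, 1.76 to 2.76), in 27 and 53 selected cells. Cstb, cystatin B, a cytosolic inhibitor of cathepsins, was at 279 against 67.1 CPM (2.06, 1.62 to 2.51) and 319 against 100.1 (1.67, 1.40 to 1.95), in 37 and 92 selected cells. Fxyd5, a regulator of the sodium pump, was at 74.4 against 12.4 CPM (2.59) and 109 against 13.4 (3.01). The remaining named genes higher in both libraries were Cd72, Cybb (a subunit of the phagocyte NADPH oxidase), Atf3 (a stress-induced transcription factor), Cdkn1a (the inhibitor p21), Glipr1, Bcl2a1d (a survival factor), Apoe and Cd74, with log2 ratios from 1.63 to 4.05. For Cybb, 19 of 33 plasma-negative UMIs lay in 1 cell, and without that cell the log2 ratio was 2.81. Bcl2a1d has near-identical copies, so its reads may be split among them.

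Apoe encodes the apolipoprotein that carries cholesterol between brain cells. Selected cells held 752 CPM of Apoe against 179 in matched plasma-negative cells (log2 2.07, 1.81 to 2.34). Those of the plasma-positive library held 3896 against 1080 (1.85, 1.77 to 1.93). In the plasma-negative library 22.0% of selected (14.0 to 31.9) and 7.22% of matched cells had 3 or more UMIs of Apoe, and in the other library 48.3% (39.9 to 56.7) and 18.0%. Most selected plasma-negative cells therefore held less than 3 UMIs of Apoe, and the 2 features overlapped without coinciding. Cd74, the invariant chain of MHC class II, was at 107 against 29.9 CPM (1.84) and 238 against 27.4 (3.12). Of 4 MHC class II genes at 10 CPM or more in both libraries, Cd74 alone was 1.5-fold higher in both.

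**Figure D2:**
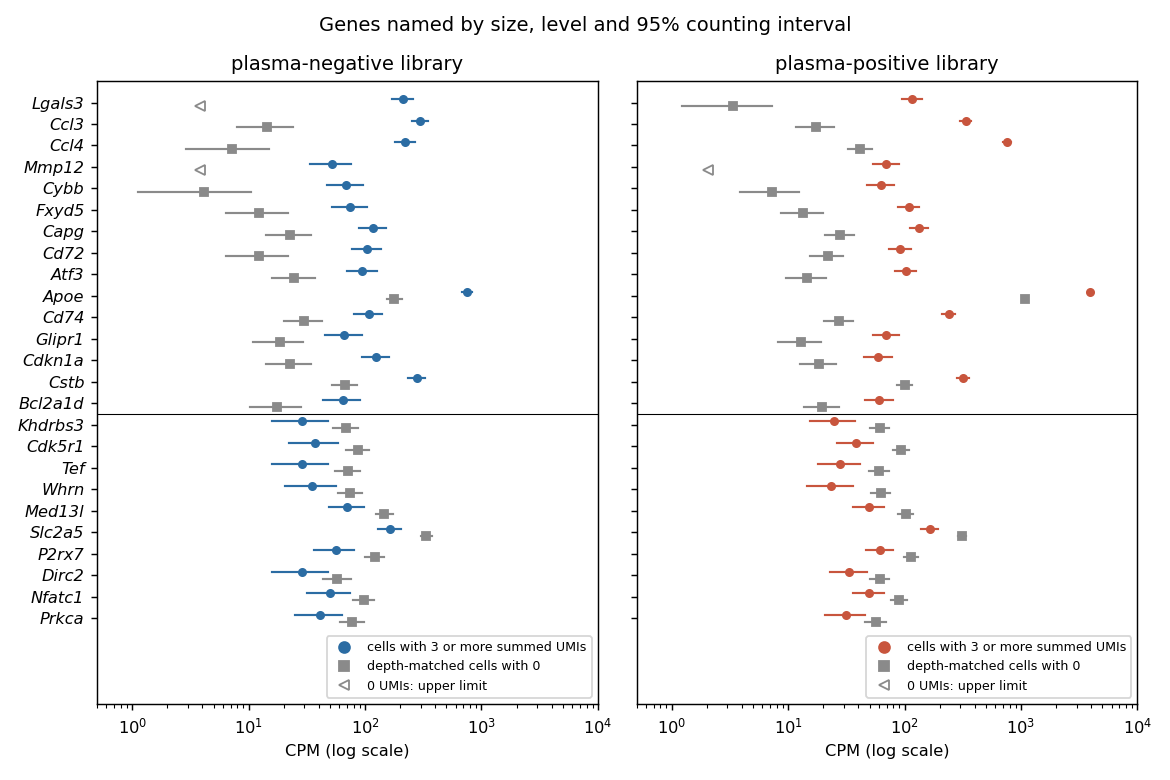
CPM (log scale) of the 25 named genes in selected cells (circles) and depth-matched cells with 0 UMIs of the 5 genes (squares), with 95% exact Poisson intervals, for each library; an open triangle marks the upper limit where no UMI was found. Above the line, Lgals3 to Bcl2a1d, circles lie to the right of squares in both libraries, and below it to the left.

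The 10 named genes lower in both libraries lay closer to the matched cells. The 1 with the highest level was Slc2a5, a fructose transporter typical of microglia. It was at 163 against 335 CPM (log2 -1.04, -1.41 to -0.68) in the plasma-negative and 164 against 313 (-0.93, -1.20 to -0.66) in the plasma-positive library. P2rx7, an ATP-gated channel, was at 55.8 against 121 CPM (-1.11) and 61.5 against 113 (-0.88). Its plasma-positive log2 ratio changed sign in 2 alternatives. It was 1.00 when cells were thinned to 2000 UMIs before selection and 0.0475 without cells holding 3 or more UMIs of interferon genes. The others were Khdrbs3, Cdk5r1, Tef, Whrn, Med13l, Dirc2, Nfatc1 and Prkca, with log2 ratios from -0.85 to -1.40.

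The lists that follow held known genes and were counted at 10 CPM or more. Among all genes at that level 14.2% were at least 1.5-fold higher and 14.5% lower in the plasma-negative library, 7.87% and 18.0% in the plasma-positive one, and 3.02% and 4.24% in both.

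Genes of the surveying state were lower as a group. Of 24 homeostatic genes 0 were 1.5-fold higher in either library, 6 and 10 were lower, and 5 were lower in both: P2ry12, P2ry13, Tmem119, Siglech and Slc2a5. Their median log2 ratio was -0.40 in the plasma-negative and -0.52 in the plasma-positive library. P2ry12, the ADP receptor that guides microglial processes, was at 2014 against 3046 CPM (-0.60) and 1568 against 2886 (-0.88). Tmem119 was at 870 against 1352 CPM (-0.64) and 692 against 1152 (-0.73). Siglech, which encodes a lectin, was at 1242 against 1998 CPM (-0.69) and 1109 against 2044 (-0.88). Mef2c, a transcription factor of microglia, was at 1715 against 1674 CPM (0.03) and 1347 against 1544 (-0.20), so the lower levels did not extend to every gene of the list.

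Genes of the disease-associated state other than the 5 were mostly higher. Of 38 with a value in both libraries, 25 were at least 1.5-fold higher in both and 0 lower, with medians of 1.02 and 1.29. The list comes from the same programme as the 5 genes. Cd63, a tetraspanin of late endosomes, was at 1023 against 335 CPM (1.61) and 1016 against 368 (1.47). Cd9, another tetraspanin, was at 2407 against 1225 CPM (0.97) and 2054 against 1161 (0.82). Ccl6 was at 314 against 163 CPM (0.95) and 506 against 189 (1.42), and Lyz2, lysozyme, at 448 against 239 (0.91) and 780 against 285 (1.45). Mif was at 285 against 93.9 CPM (1.60) and 281 against 88.4 (1.67). Genes with no UMI in matched cells of 1 or both libraries included Ch25h, which makes 25-hydroxycholesterol, Igf1, Fam20c, Lilrb4a and Cd300lb, all at no more than 28.9 CPM in selected cells.

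The receptor and adaptor often placed upstream of that programme were less than 1.5-fold higher in both libraries. Trem2 was at 2574 against 2553 CPM (log2 0.01) in the plasma-negative and 2761 against 2338 (0.24) in the plasma-positive library. Tyrobp was at 3215 against 2623 (0.29) and 4004 against 2781 (0.53, 0.46 to 0.59). The median over the 3524 compared genes in the plasma-positive library was -0.14, so Tyrobp lay further from the typical gene there than from equality. Of 16 genes of Dectin-1 and Trem2 signalling, 0 were 1.5-fold higher or lower in both libraries, and the medians were -0.26 and -0.27. Over all genes 3.02% were higher and 4.24% lower in both, so a count of 0 among 16 lies near these shares. Of 8 receptors of osteopontin and partners of CD11c, 0 were 1.5-fold higher or lower in both, with medians of -0.18 and -0.14. Among them Itgav was at 140 against 187 and 117 against 169 CPM, and Cd44 at 8.26 against 2.06 and 10.1 against 2.80, near the level of a few UMIs.

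Lipid genes moved in part. Of 22, 6 were higher in both libraries and 0 lower, with medians of 0.21 and 0.19. The 6 were Apoe, Fabp5, a fatty acid carrier (16.5 against 3.10 and 41.4 against 6.15 CPM), the lipid droplet coats Plin2 (31.0 against 15.5 and 34.7 against 19.6) and Plin3 (16.5 against 5.16 and 23.5 against 8.95), the scavenger receptor Cd36 (10.3 and 14.5 CPM against no UMI) and Ch25h. In the plasma-negative library the log2 intervals of Plin2 (-0.13 to 2.14) and Plin3 (-0.11 to 3.64) included equality. In selected cells of that library Fabp5 had 8 UMIs in 2 cells, Cd36 5 in 3 and Ch25h 10 in 3. The cholesterol exporters did not pass in both libraries: Abca1 was at 0.20 and 0.12 and Abcg1 at 0.81 and 0.19 on the log2 scale. Npc1, which moves cholesterol out of lysosomes, was at -0.56 and -0.46. Lmf1, needed for folding of lipoprotein lipase, was at 0.09 and 0.03, and Gpihbp1, its anchor on capillaries, had no UMI.

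Lysosomal genes differed gene by gene. Of 12 cathepsins and cystatins 3 were higher in both libraries: Ctsb at 2141 against 1229 CPM (log2 0.80) and 2494 against 1256 (0.99), Ctsz at 2781 against 1662 (0.74) and 2617 against 1638 (0.68), and Cstb. Cathepsin S was at -0.09 and 0.09, and cystatin C, Cst3, the most abundant gene of the list, at -0.20 and -0.06. Ctsc and Ctsl, proteases that cystatin F can inhibit, were at 0.26 and 0.21 and at -0.03 and 0.35. Of 21 genes of the MITF and TFEB family and their lysosomal targets 2 were higher in both, Galns and Atp6v1a, with medians of 0.08 and 0.16.

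Ferritin and glycolysis genes were higher. Of 11 iron genes 4 were higher in both libraries, including both ferritin chains. Fth1 was at 5109 against 2616 CPM (log2 0.97) and 6185 against 3081 (1.01), and Ftl1 at 2959 against 1403 (1.08) and 3503 against 1515 (1.21). The iron exporter Slc40a1 was at 124 against 153 CPM (-0.30) and 74.9 against 196 (-1.39). Of 19 glycolysis and hypoxia genes 9 were higher in both and 0 lower, with medians of 0.58 and 0.70. Pgk1 was at 124 against 31.0 CPM (2.0) and 97.3 against 37.5 (1.38), Pkm at 277 against 89.8 (1.62) and 227 against 94.5 (1.26), and Gapdh at 845 against 463 (0.87) and 917 against 442 (1.05). The first enzyme of the path, hexokinase 2, was at -0.15 and -0.28.

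**Figure D3:**
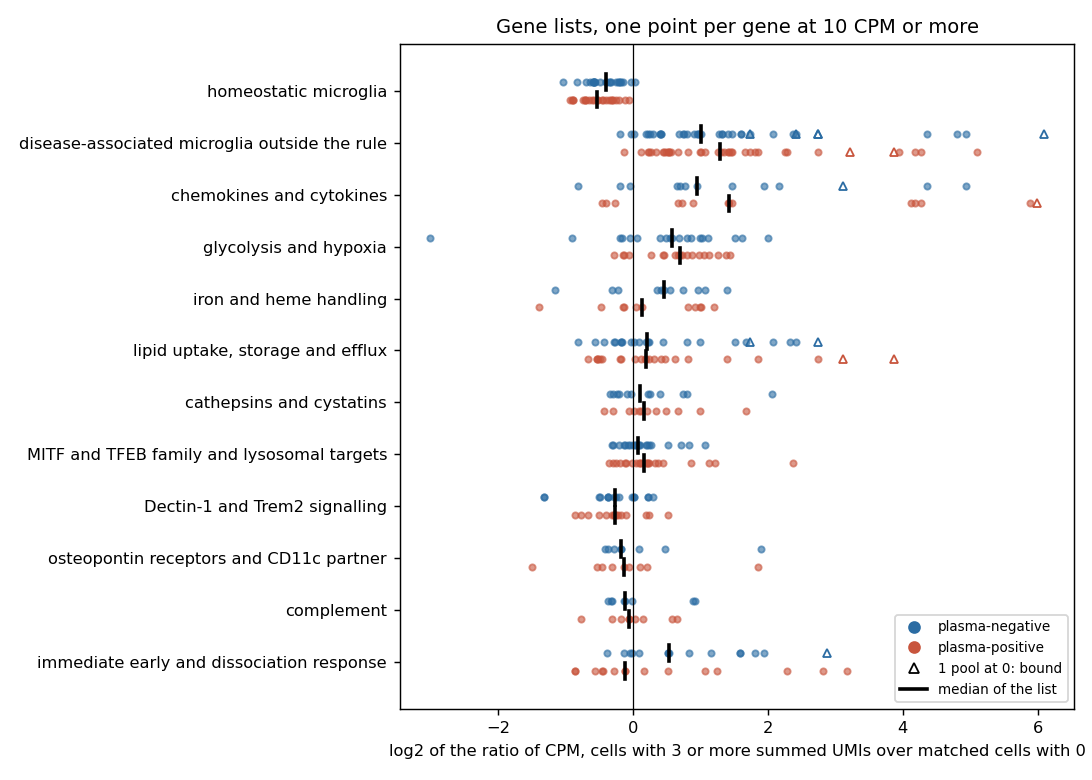
Log2 ratio of CPM in selected over matched cells for each gene of 12 lists in both libraries, with the list's median as a black bar and open triangles for genes with no UMI in 1 pool. Disease-associated genes lie mostly right of 0 (medians 1.02 and 1.29) and homeostatic genes mostly left of it (-0.40 and -0.52). Dectin-1 and Trem2 signalling also has medians left of 0 (-0.26 and -0.27).

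Chemokines were the other list that was mostly higher: 10 of 13 genes in both libraries, with medians of 0.95 and 1.42. Besides Ccl3, Ccl4 and Ccl6 these were Ccl2, Ccl9, Ccl12, Cxcl2, Cxcl16, Csf1 and Osm. Ccl3, Ccl4, Ccl6 and Csf1 are also on the disease-associated list and were counted there, so the results of the lists are not independent. Cxcl16 was at 163 against 42.3 CPM (1.95) and 160 against 57.6 (1.47). The cytokines Il1a (-0.05 and -0.27), Tgfb1 (-0.19 and -0.40) and Il6 (-0.81 and -0.46) were not among the 10. Cxcl2 rested on single cells, with 13 of 13 plasma-negative UMIs in 1 selected cell and 94 of 95 plasma-positive UMIs in 1 of 2. Without each gene's highest selected cell, Ccl6, Ccl9 and Ccl12 were not 1.5-fold higher in both libraries, while Ccl3, Ccl4 and Cxcl16 were. Immediate early genes, which dissociation of tissue can induce, were at medians of 0.53 and -0.11, and 4 of 14 were higher in both libraries (Egr1, Atf3, Ier2 and Ier3). Jun was at -0.01 and -0.45 and Fos had no UMI in selected cells. The part of dissociation in the chemokine levels was not tested.

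Of the remaining lists, complement had 1 of 8 genes higher in both libraries, the receptor C3ar1 (log2 0.93 and 0.66), with C1qa at -0.12 and 0.04. Cell cycle genes had medians of 0.31 and 1.10, with Pcna and Stmn1 higher in both of 10. Interferon genes had medians of 0.30 and 0.56, with Ifitm3 and Ifi27l2a higher in both of 14. MHC class II genes had medians of 0.11 and 1.80, with Cd74 higher in both of 4. Ribosomal protein genes took 11.3% of the UMIs of selected and 9.23% of matched plasma-negative cells, and 13.9% and 9.80% in the plasma-positive library, with 5 of 85 higher in both. With ribosomal and mitochondrial genes left out of the total, 59 genes in place of 89 were lower in both libraries.

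Levels differed most in the cells with the largest sums. P2ry12 was at 3046 CPM (2938 to 3158) in matched plasma-negative cells, 2749 at 1 UMI, 2476 at 2, 2424 at 3, 2009 at 4 or 5 and 1018 (828 to 1238) in the 14 cells at 6 or more. The same steps in the plasma-positive library gave 2886 (2808 to 2966), 2427, 1986, 2170, 1694 and, in 34 cells, 810 (706 to 926). Cells at 3 UMIs thus lay beside the unselected cells at 2, and the lowest levels were those of the few cells at 6 or more. In the cells at 6 or more, P2ry12 was found in 9 of 14 and 24 of 34, against 177 of 180 and 283 of 284 matched cells.

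Genes of the disease-associated programme ran the other way. Lgals3 was at 0, 9.0, 13.9, 78.3, 157 and 621 CPM (475 to 797) over these steps in the plasma-negative library. Of its 102 UMIs in selected plasma-negative cells 38 lay in 1 cell, which the counting interval does not cover. In the plasma-positive library Lgals3 was at 3.36, 18.0, 18.4, 13.7, 114 and 261 CPM (204 to 330). Cd63 went from 335 to 1618 CPM and from 368 to 1535 between the first and the last step, and Ccl3 from 14.4 to 1170 and from 17.3 to 680. The iron list summed to 5362 CPM in the first and 17695 in the last plasma-negative step, and to 5967 and 15424 in the plasma-positive ones. The highest and lowest steps also differ in depth, with medians of 4397 and 6430 UMIs in the plasma-negative library and 5396.5 and 6770 in the plasma-positive one.

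**Figure D4:**
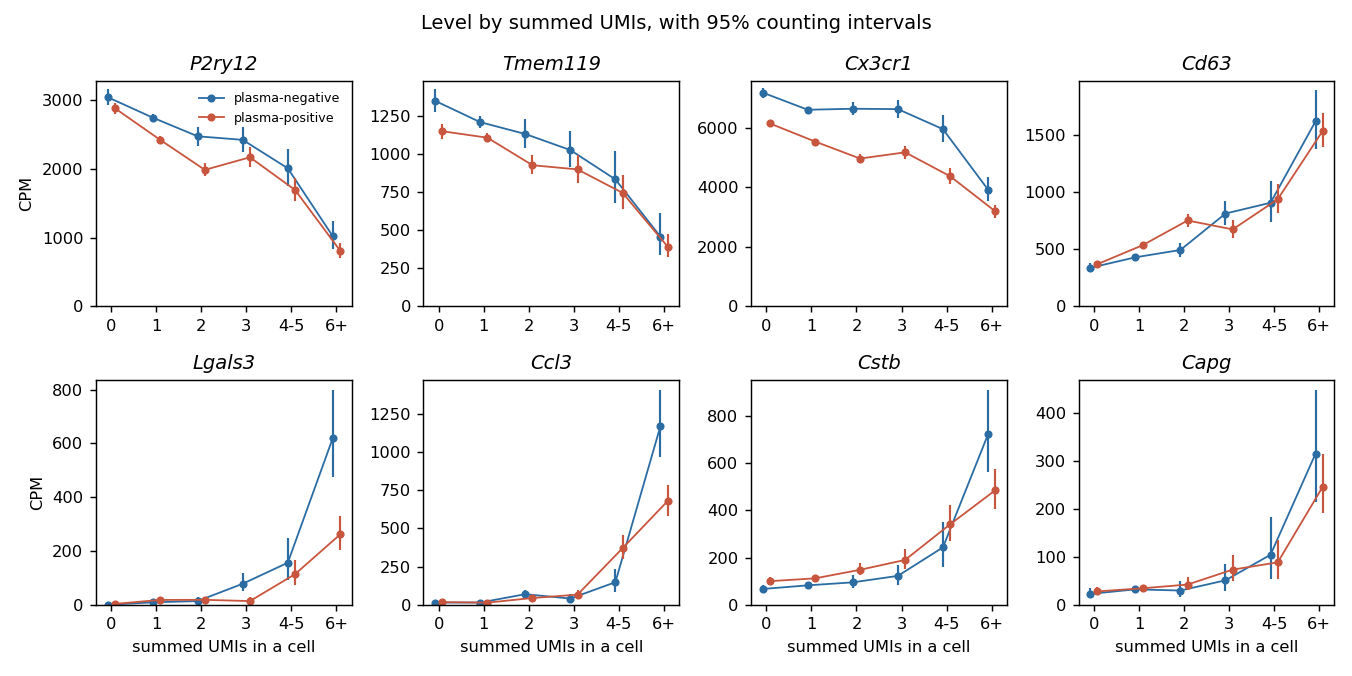
CPM of 8 genes by the sum of UMIs of the 5 genes in a cell (0 stands for the depth-matched cells), with 95% exact Poisson intervals, in both libraries. P2ry12, Tmem119 and Cx3cr1 are lowest and Cd63, Lgals3, Ccl3, Cstb and Capg highest at 6 or more UMIs.

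Cells led by Lpl were set beside the other selected cells, which were led by another of the 5 genes or, in 1 and 5 cells, had a tie. Lgals3 was at 246 CPM in the 74 Lpl-led and 19.8 in the other 17 plasma-negative cells, but at 110 and 108 in the plasma-positive library. Apoe was at 552 CPM in Lpl-led and 1394 in the other cells of the plasma-negative library, and at 2379 and 9423 in the plasma-positive one. Interferon genes summed to 1197 CPM in plasma-positive Lpl-led cells and 3235 in the 37 others, and to 828 and 573 in the plasma-negative library. Of these 3 quantities, Apoe had 1 direction in both libraries, interferon genes opposite ones, and Lgals3 differed in the plasma-negative library by more than in the other.

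Between the libraries, 24 of 3716 genes (0.646%) were at least 2-fold higher and 47 (1.26%) at least 2-fold lower in plasma-positive than in plasma-negative selected cells. The balance of these counts depended on the settings: it was 35 higher and 31 lower with median-of-ratios scaling, 25 and 16 without each gene's highest cell, and 53 and 115 with cells matched in depth between the libraries. Apoe was at 3978 against 720 CPM (log2 2.47, 2.31 to 2.63), but the matched cells differed as much (1080 against 179 CPM, 2.60, 2.37 to 2.83). The interferon-induced Ifi27l2a was at 301 against 21.7 CPM (3.79, 2.93 to 4.81) in selected and 68.8 against 12.4 (2.47, 1.62 to 3.47) in matched cells. Ifitm3 was at 151 against 19.7 CPM (2.93) in selected and 50.3 against 13.4 (1.91) in matched cells. These 3 genes were thus higher in the plasma-positive library in both kinds of cell.

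Several of the genes higher in plasma-positive cells rested on few cells. Ccl5, a chemokine also made by T cells, gave 266 UMIs in 12 of 145 plasma-positive and 1 in 91 plasma-negative selected cells. Of the 15 T and NK cell markers, 13 including Cd3e, Trac and Nkg7 had no UMI in selected cells of either library, and beside Ccl5 only Klrd1 did. Their sum was 4.13 CPM in selected and 27.9 in matched plasma-negative cells, and 308 and 22.4 in the plasma-positive ones. Gdf15 (99 of 104 UMIs), Cxcl2 (94 of 95) and Ccl2 (55 of 78) came mostly from 1 plasma-positive cell each, and Cxcl9 from 2 cells. Lower in the plasma-positive cells were Lilr4b, with 21 of its 27 plasma-negative UMIs in 1 cell, and 4 genes that were spread over more cells. Myc was at 13.8 against 51.3 CPM (log2 -1.89), in 13 plasma-positive and 17 plasma-negative selected cells, and Ptcd3, Tnfaip2 and 2810402E24Rik had the same log2 ratio. Myc did not differ by that much in matched cells (24.0 against 22.7 CPM).

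**Figure D5:**
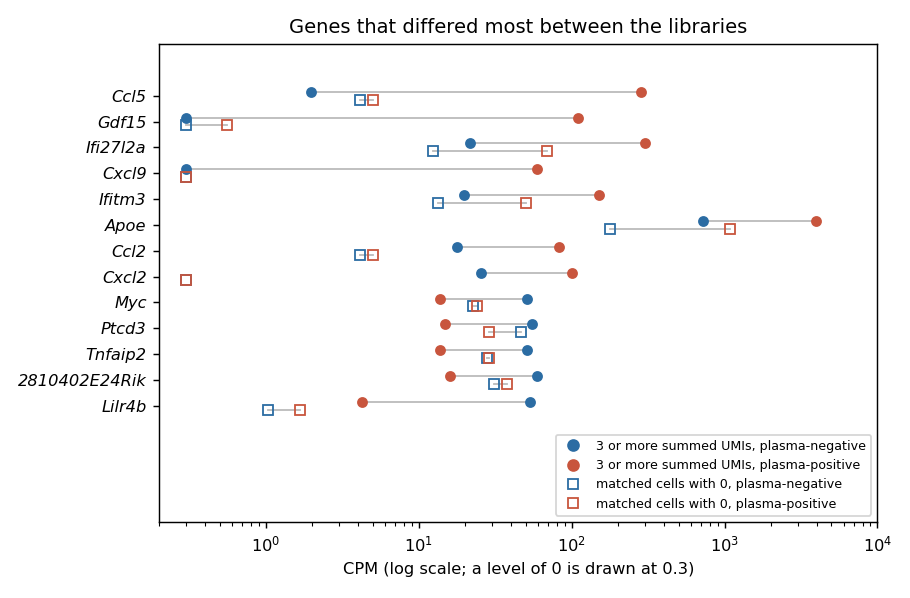
CPM (log scale, a level of 0 drawn at 0.3) in plasma-positive and plasma-negative selected cells (filled circles) and matched cells (open squares) for the 13 genes named for the largest differences between the libraries. Apoe differs as much in matched (1080 against 179 CPM) as in selected cells, while Ccl5 is at 5.03 and 4.13 CPM in matched cells.

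The promoters of the genes higher in both libraries were searched for the same motifs. AP-1 letters stood in a window of 12 of 76 genes with an entry (15.8%), against 5.96% of the 2802 compared genes with one and 6.45% of 62 genes lower in both. The PU.1 letters were found for 42.1%, 33.2% and 38.7% of these, the antioxidant response letters for 21.1%, 18.3% and 24.2%, and the E-box for 13.2%, 13.6% and 30.6%. These shares describe the letters in the windows and were not tested.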

How the data were processed

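The authors deposited raw UMI counts per gene and cell for 2 libraries, as 1 matrix each with 31053 genes. Per the file headers, the software was Cell Ranger 6.1.2, and the submitters' processing notes name version 3.0.1. The genome build, annotation and use of strand are not given in the sources used here. GENCODE M21 (GRCm38) supplied coordinates for 31011 identifiers, and that build need not be the authors'. The libraries held 34549522 and 42006454 UMIs in 9878 and 10390 cells, of which 9860 and 10362 passed the limits on UMIs, genes and mitochondrial share. Cell barcodes, and so barcodes shared by the libraries, were not analysed here. Doublets were not removed in the values reported. The automatic threshold of Scrublet in scanpy 1.11.5 called 0 cells and so had not worked. As an alternative, the highest-scoring cells were removed at an assumed rate of 0.8% per 1000 cells, 778 and 859 cells, with 11 and 9 selected cells among them.

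Each selected cell was matched to 2 cells with 0 UMIs of the chosen genes, within 5% of depth and without replacement, and counts were summed. Free RNA in droplets was not estimated. Intervals are exact (Poisson for levels, Clopper-Pearson for shares, conditional binomial for ratios) at 95%. A pool at 0 was set at 3 counts, which gives a bound. The named genes are those at 50 CPM or more and at least 1.5-fold different in both libraries with the largest smaller log2 ratio, 15 higher and 10 lower. Between the libraries they are the 8 and 5 with the largest difference. The members and lists were chosen with earlier results of these data known. Simulated pools with 2-fold changes were called in 98% (higher) and 91.3% (lower) of changed genes among 3439 genes. These pools were drawn from the levels of matched cells with counting error only. They do not cover genes whose UMIs lie mostly in single cells. Python 3.11.15 with scipy 1.17.1 was used.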

Additional observations from a re-analysis of the deposited data

Results flagged for a closer look

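A few results went in opposite directions in the 2 libraries, and with 1 library per group the differences were not tested. The summed level of the cathepsins and cystatins was -0.0904 (log2, selected over matched cells) in the plasma-negative and 0.0543 in the plasma-positive library, and that of complement genes -0.0777 and 0.0451. Both lists hold very abundant genes, so that their counting intervals are narrow. At least 1.5-fold in opposite directions were Secisbp2 (1.11 and -0.62), Slk (-0.87 and 0.60) and Tomm70a (0.65 and -0.63), each at no more than 103 CPM. Over the 3524 genes compared, 4 (0.114%) were 1.5-fold different in opposite directions.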

How the results depend on the processing

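No paired analysis was possible because there was a single library on each side, and for the same reason no replicate could be left out. The rule without Clec7a was not run, since that gene was not summed. Removing doublet candidates, dropping Spp1, Cst7, Itgax or Gpnmb from the sum, using 1 matched cell and requiring 1000 UMIs per cell left the shares inside their intervals and the counts they bear on within 1.5 times. The counts are given as genes higher and lower in both libraries, then higher and lower in plasma-positive selected cells (91, 89, 24 and 47 as reported), where they moved.

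A threshold of 2 UMIs gave shares of 2.04% and 3.09%, counts of 37 and 8, and 6 lower between the libraries. A threshold of 5 gave 0.243% and 0.483% and counts of 278, 520, 135 and 403. Thinning to 2000 UMIs first gave 0.376% and 0.373% and counts of 270, 367, 456 and 895. The rule without Lpl gave 0.152% and 0.347% and counts of 193, 542, 322 and 1017. These settings leave from 15 to 50 selected cells per library, except the first of them. Without cells with 3 or more UMIs of cell cycle genes, a limit that 62.2% and 73.2% of matched cells also reach, the shares were 0.464% and 0.666%, with 243 lower and 392 and 872 between the libraries. Without interferon cells they were 0.614% and 0.694%, with 136 lower and 300 and 502. Without Apoe cells the plasma-positive share was 0.839%, with 51 and 105 between the libraries.

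Weighting by depth classes gave 53 lower, leaving out mitochondrial and ribosomal genes 59, and median-of-ratios scaling 140 higher, 44 lower and 31 lower between the libraries. Averaging over cells gave 38 and 106 between the libraries, and matching depth between the libraries 53 and 115. A level of 20 CPM gave 176, 204, 138 and 277, and one of 200 CPM 37 and 13. Each gene's highest selected cell left out, chosen after seeing the data, gave 65 higher and 207 lower in both libraries. The 207 are raised by construction, since the matched cells lost no cell. Between the libraries, where both sides lost a cell, 16 were lower.

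Of 986 log2 ratios of named genes between selected and matched cells under these alternatives, 8 changed sign. Thinned first, these were Med13l (0.59), Dirc2 (0.00317) and Nfatc1 (0.42) in the plasma-negative and Cdk5r1 (0.00319) and P2rx7 (1.00) in the plasma-positive library. The others were Whrn without Lpl in the rule (0.26, plasma-negative), Bcl2a1d without cell cycle cells (-0.000466, plasma-negative) and P2rx7 without interferon cells (0.0475, plasma-positive). Between the libraries 7 of 218 changed sign: Cxcl2 thinned first (-0.55), without Lpl (-3.75) and matched in depth (-2.11), Gdf15 without Spp1 (-0.12), without cell cycle cells (-0.0758) and without its highest cell (-0.16), and Ccl5 without cell cycle cells (-0.0758). The list medians changed sign in 0 of 80. The homeostatic median ranged from -0.75 to -0.23 and from -0.99 to -0.39, and the disease-associated one from 0.58 to 1.42 and from 0.76 to 1.64. Except where the setting's construction shows it, the cause was not tested.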
